A study of Homo sapiens with 3 samples.

Results

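The genes described here encode the sodium pump subunits ATP1B1 and ATP1B3, the cation chloride cotransporters SLC12A2, SLC12A4 and SLC12A7, and the kinases WNK1 and SGK1. They were selected by gene name, 7 genes of 61533 in the deposited tables, because ATP1B1 was higher in each of 2 successive steps and because oxamate was given as its sodium salt. The ratios of ATP1B1 therefore chose the set, and all ratios of its members in these contrasts are descriptions without a test. All 7 passed the filter on low values and had more than 50 fragments in every library.

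The samples are cultures of Hep3B, an established human liver cancer line labelled wild type, grown in medium with serum. The 3 conditions were 20% oxygen (normoxia), 1% oxygen in a flushed chamber (hypoxia), and 1% oxygen with sodium oxamate, a pyruvate analogue that inhibits lactate dehydrogenase. Each condition had 1 library of polyadenylated RNA, so differences between conditions could not be set against a spread between cultures, and p-values are absent. Oxamate was applied for 48 hours according to the series design. Its dose and the duration of the other cultures are not stated there. No library with added sodium and no oxamate was analysed, so sodium and oxamate cannot be told apart in the step with the drug.

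Cells keep sodium low and potassium high with the sodium pump, an ATP-driven enzyme made of a catalytic alpha subunit and a beta subunit that brings the complex to the cell surface. Cell volume is set beside it by cotransporters that carry chloride with sodium and potassium into the cell (SLC12A2) or with potassium out of it (SLC12A4 and SLC12A7). WNK kinases respond to chloride and osmotic conditions, and act through the kinases encoded by STK39 and OXSR1 to switch the inward carriers on and the outward carriers off. SGK1 is a kinase whose transcript is known to respond to steroid hormones and to osmotic stress, and which promotes sodium transport.

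The libraries held 24826365 to 27412147 fragments assigned to genes. Levels are in CPM, fragments relative to library size after scaling by a trimmed mean of log ratios. All intervals are 95% intervals of counting error alone. Calls rest on size alone: a gene was called higher or lower when it differed 2-fold or more and the larger of the pair of counts reached 50 fragments. All 10 hepatocyte and hepatoma markers were present, and their levels summed to 32405 CPM (normoxia), 20706 (hypoxia) and 11931 (oxamate). ALB was the largest, at 18298, 8887 and 6809 CPM. In hypoxia 5 of the 10, ALB among them, were called lower, 4 were not called, and TF was called higher (3.38-fold). That call of ALB was lost when scaled by total fragments (log2 -0.88) and when a trend on gene length was subtracted (log2 -0.92). With oxamate over hypoxia 5 of the 10 were called lower, TF among them, and 0 higher. Of all genes tested, 8.07% were called lower and 10.8% higher in hypoxia, and 5.07% and 5.92% with oxamate over hypoxia. The 7 blood cell markers summed to 32.7 to 61.2 CPM, mostly LYZ at 31.8 to 59.9. Among them CD14 had 140, 22 and 17 fragments and was called lower in hypoxia (6.81-fold). It reached 50 fragments only in normoxia, so it could be called only as lower there. The 5 endothelial markers summed to 1.35 to 20.1 CPM, mostly PECAM1 at 1.28 to 19.9. PECAM1 had 33, 230 and 499 fragments and was called higher in hypoxia (6.51-fold) and again with oxamate over hypoxia. In normoxia it was below 50 fragments, so in the first step it could be called only as higher. The blood cell markers CD3E and HBB and the endothelial marker KDR had 0 fragments in all 3 libraries. The 6 fibroblast or stellate cell markers summed to 30.1 to 35.4 CPM, with DCN and ACTA2 at 0 in every library. Within that sum LUM had 397, 412 and 580 fragments, whereas PDGFRB had 315, 438 and 110 and was called lower with oxamate than in hypoxia (3.60-fold), as was COL1A1 (2.30-fold). The 6 markers of bile duct or kidney epithelium summed to 675 to 1062 CPM, mostly EPCAM and KRT19, with UMOD at 0. PAX8 had 5, 18 and 180 fragments and was called higher with oxamate than in hypoxia (11.1-fold). It reached 50 fragments only with oxamate, so it could be called only as higher. The part of these shifts in the results below was not tested, and in bulk RNA fewer cells of a type and less RNA per cell cannot be told apart. Hypoxia was visible in its marker genes: 8 of 8 were called higher in 1% oxygen, from BNIP3 at 2.47-fold to CA9 at 27.6-fold.

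In hypoxia against normoxia, 2 of the 7 members were called higher (WNK1 and ATP1B1) and 1 lower (SGK1). Of all 13554 genes tested in that step, 10.8% were called higher and 8.07% lower (1468 and 1094 genes, or 1775 and 751 when scaled by total fragments). With oxamate against hypoxia alone, 3 members were called higher (ATP1B3, SLC12A2 and ATP1B1) and 0 lower, where 5.92% and 5.07% of 13739 genes were so called. With oxamate against normoxia, 3 members were called higher (ATP1B1, SLC12A2 and SLC12A4) and 1 lower (SGK1), beside 15.4% and 15.3% of 13597 genes. The median log2 ratio of the members was 0.71, 0.47 and 0.98 in the 3 contrasts, and that of all genes tested was -0.11, -0.01 and -0.11. These counts and medians include ATP1B1, whose ratios chose the set, so they describe the members and do not test them. The contrasts share libraries and are not independent of one another.

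**Figure D1:**
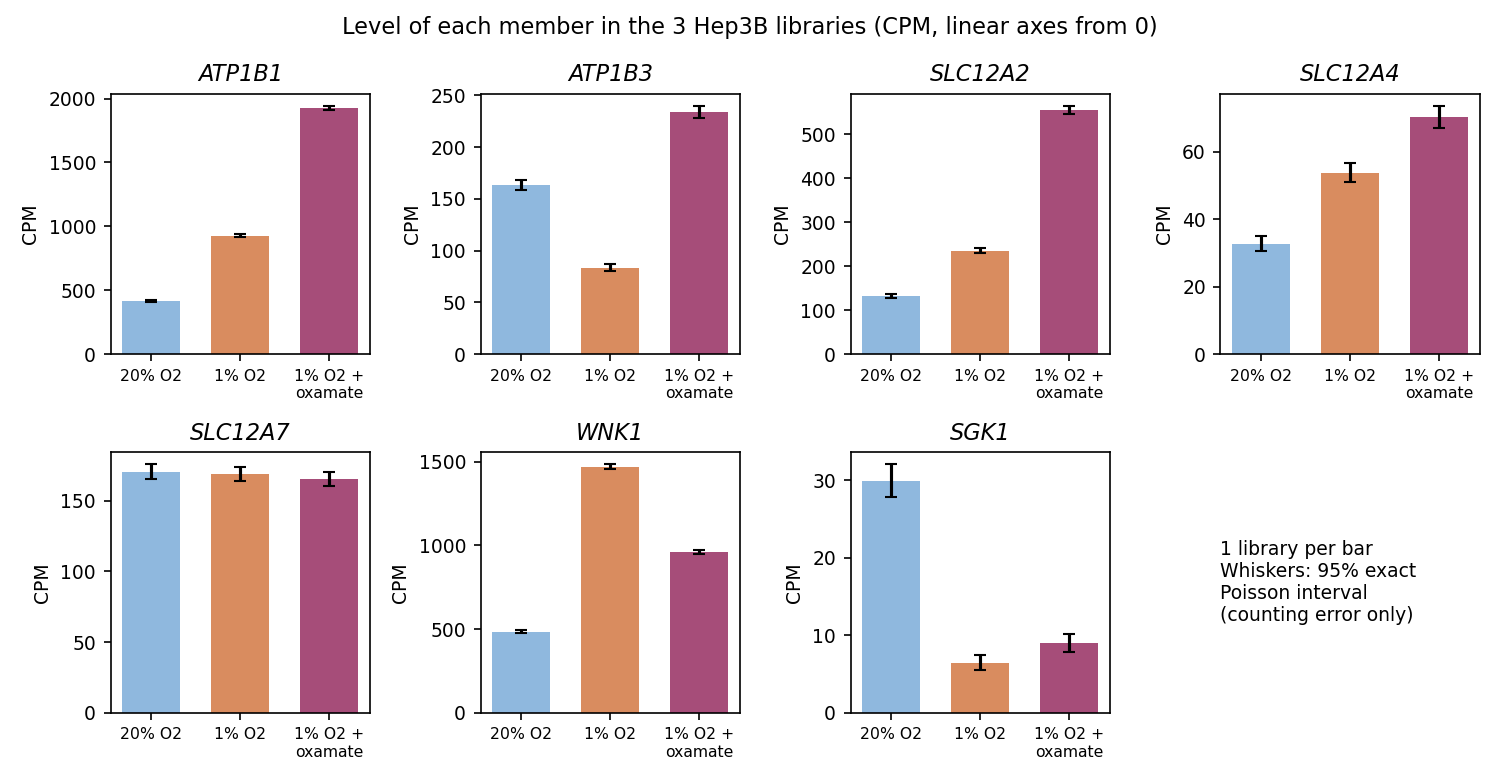
Level of each member in CPM (linear axes from 0) in the libraries of 20% oxygen, 1% oxygen, and 1% oxygen with oxamate, with 1 library per bar and 95% exact Poisson whiskers. ATP1B1, SLC12A2 and SLC12A4 are lowest in normoxia and highest with oxamate, ATP1B3 is lowest in hypoxia, WNK1 is highest in hypoxia, SGK1 is highest in normoxia, and SLC12A7 lies between 165 and 170 CPM.

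ATP1B1 encodes the most widely expressed beta subunit of the sodium pump. The gene lies on the plus strand of chromosome 1 from 169105697 to 169310992 (hg38). Its level was 416 CPM in normoxia (10761 fragments), 926 in hypoxia (25615) and 1925 with oxamate (48161). The 3 intervals did not overlap. The ratio was 2.22 in hypoxia against normoxia (interval 2.17 to 2.28), 2.08 with oxamate against hypoxia (2.05 to 2.11) and 4.63 with oxamate against normoxia (4.53 to 4.73). Both step ratios were just inside the 2-fold rule. In the first step the call was lost when a trend on gene length was subtracted (log2 0.90), and in the second when libraries were scaled by total fragments (log2 0.99).

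The length of ATP1B1 that enters such a trend is uncertain. The tables give it 12290 exon bases, whereas GENCODE 29 gives 2962, with an end at 169132722 and a principal transcript of 2608 bases in 7 exons. Read at the principal transcript length, the same trend gave a log2 ratio of 1.33 in hypoxia and the call was kept. In GENCODE 29, 6.48% of the exon bases of ATP1B1 overlap NME7 on the opposite strand. The longer model of the tables ends inside NME7 (169132531 to 169367948), so the overlap behind the printed counts is not known and may be larger, and no source used here states whether the authors counted by strand. NME7 counted 375, 454 and 285 fragments in normoxia, hypoxia and oxamate. The pseudogene ATP1B1P1 had 1, 6 and 0. The level of NME7 was 1.44-fold lower when oxamate was added to hypoxia (1.24 to 1.68). The part of NME7 fragments in the values of ATP1B1 was not tested.

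The start of the promoter window of ATP1B1 held 1 copy of ACGTG, read on the minus strand, the core letters bound by hypoxia-inducible factors. The 30 bases at chr1:169106440-169106469 (GRCh38.p14, plus strand, RefSeq) are shown with that match in capitals. They begin 250 bases before the RefSeq transcription start. In GENCODE 29 they lie in a noncoding exon part of 2 ATP1B1 transcripts.
ATP1B1: ccagcaCACGTccccagtggcagcgggagc

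ATP1B3 encodes another beta subunit of the pump (chromosome 3, plus strand, 141876124 to 141926549). Its level was 163 CPM in normoxia (4219 fragments), 83.7 in hypoxia (2317) and 234 with oxamate (5845). Hypoxia was the lowest library and oxamate the highest, with no overlap of intervals. It stood 1.95-fold lower in hypoxia than in normoxia (1.85 to 2.05), just outside the 2-fold rule, and passed it when a trend on GC content was subtracted (log2 -1.02). With oxamate it was called higher, at 2.79-fold over hypoxia (2.66 to 2.93), the largest ratio of any member in that step. Against normoxia it stood at 1.43-fold (1.38 to 1.49), and was not called.

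None of the exon bases of ATP1B3 overlap another gene in GENCODE 29, and its pseudogene ATP1B3P1 had 0 fragments in all 3 libraries. The promoter window of ATP1B3 opened with ACGTG joined to GCGTG, which share 1 base, at chr3:141876393-141876422 (GRCh38.p14, plus strand). In GENCODE 29 these bases lie in a noncoding exon part of 1 ATP1B3 transcript. The matches are in capitals.
ATP1B3: ACGTGCGTGcgactaaaccttcggattttt

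In hypoxia ATP1B1 was thus higher and ATP1B3 lower than in normoxia, and with oxamate both were higher than in hypoxia. The ratio of ATP1B1 to ATP1B3 changed by 2.12 on the log2 scale in the first of these steps and by -0.42 in the second.

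The other pump genes on the list were mostly near absence. Of 14 pump subunit and FXYD genes listed, 4 had at least 50 fragments in either library of each step. FXYD2, a small regulator of the pump best known from kidney, had 6.23, 11.4 and 35.5 CPM, and was called higher with oxamate over hypoxia at 3.11-fold (2.73 to 3.55). Of its exon bases, 14.2% overlap other genes, including the readthrough FXYD6-FXYD2. FXYD3 had 0, 76 and 20 fragments, which made it at least 23.7-fold higher in hypoxia when normoxia is set to a floor of 3 fragments (the counting interval of the ratio itself began at 18.8), and 3.43-fold lower with oxamate (2.08 to 5.94). In all, 2 of the 4 were called higher in hypoxia and 0 lower, where 10.8% and 8.07% of all genes were so called. With oxamate over hypoxia 3 were higher and 1 lower, beside 5.92% and 5.07% of all genes. Scaling by total fragments left 2 of those 3 called higher with oxamate (ATP1B3 and FXYD2) and added FXYD2 to those called higher in hypoxia (log2 1.03). In the step with oxamate the median log2 ratio was 1.27 over the 4 pump genes and -0.01 over all genes. The list holds ATP1B1, which was chosen on these ratios. It also holds FXYD3, which reached 50 fragments only in hypoxia and entered both steps through that library. The calls of FXYD3 therefore follow from the minimum of 50 fragments and add no support to the counts.

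**Figure D2:**
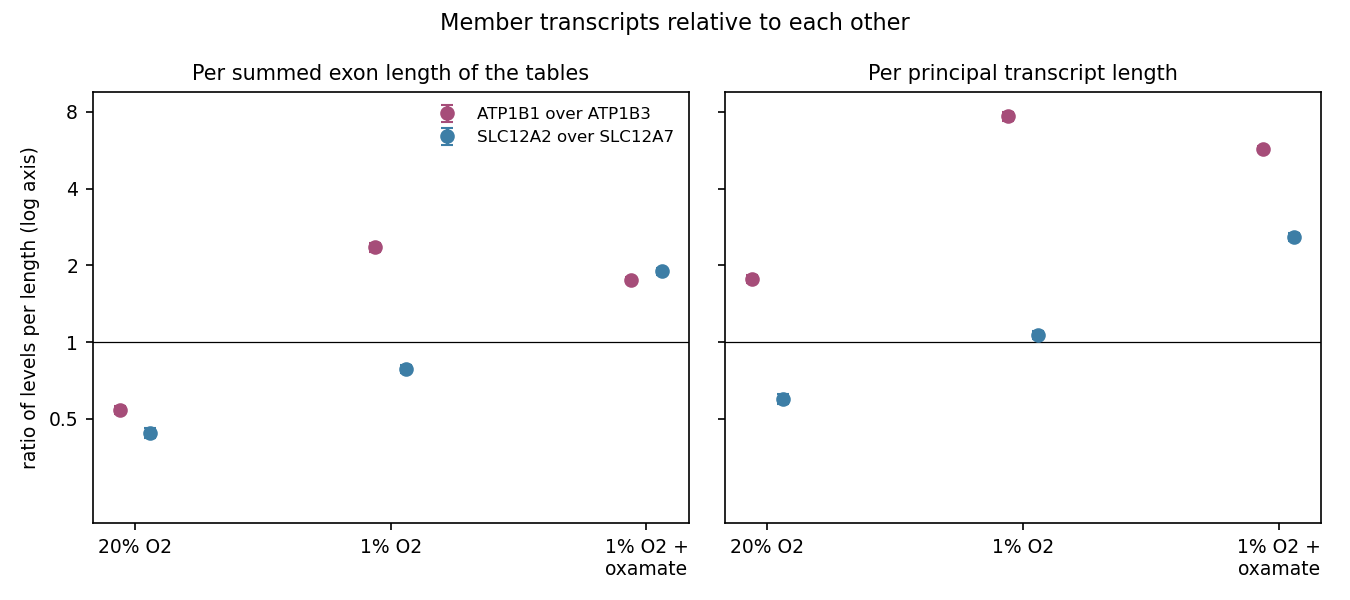
Ratio of the levels per length of ATP1B1 to ATP1B3 and of SLC12A2 to SLC12A7 in each library (log axis), with 95% intervals of the fragment counts, which are mostly smaller than the points. The left panel divides by the exon length of the tables and the right panel by the principal transcript length; ATP1B1 over ATP1B3 crosses 1 between the panels in normoxia and SLC12A2 over SLC12A7 does so in hypoxia, and both ratios are lowest in normoxia in either panel.

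Levels of different genes were compared per exon length, in FPKM (fragments relative to exon length and library size). In normoxia ATP1B3 was first of the members at 62.7 FPKM, then ATP1B1 at 34.0, SLC12A7 at 28.5, WNK1 at 28.3, SLC12A2 at 12.6, SLC12A4 at 3.97 and SGK1 at 3.01. The intervals of SLC12A7 and WNK1 overlapped; those of all other neighbours in this order did not. In hypoxia WNK1 was first at 84.7 FPKM and ATP1B1 next at 74.95, ahead of ATP1B3 at 31.8; per principal transcript length ATP1B1 was first there, at 353 against 139.96 FPKM for WNK1. With oxamate ATP1B1 was first at 155 FPKM, then ATP1B3 at 88.3, WNK1 at 54.9 and SLC12A2 at 51.6. No neighbours overlapped in the 2 libraries of 1% oxygen. SGK1 was last in all 3 libraries by this measure; per principal transcript length it stood above SLC12A4 in normoxia, at 12.5 against 6.92 FPKM.

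The order depended on the length used. Per the exon length of the tables, ATP1B1 stood at 0.543 of ATP1B3 in normoxia (0.524 to 0.563), 2.35 in hypoxia (2.26 to 2.46) and 1.75 with oxamate (1.71 to 1.80). Per principal transcript length, the same ratios were 1.77, 7.68 and 5.72. In both libraries of 1% oxygen ATP1B1 was above ATP1B3 by either length. The values per principal transcript length, here and above, divide fragments counted over the longer exon model of the tables by a shorter length. That is 12290 against 2608 bases for ATP1B1 and 9990 against 2401 for SGK1. Fragments from outside the principal transcript raise these values by an amount that is not known.

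SLC12A2 encodes the carrier that brings sodium, potassium and chloride into the cell together, and its activity raises cell volume. The gene lies on chromosome 5 from 128083766 to 128189677 on the plus strand, and its exons overlap no other gene in GENCODE 29. Its level was 133 CPM in normoxia (3441 fragments), 235 in hypoxia (6503) and 555 with oxamate (13896). The levels were in the same order as those of ATP1B1, without overlap. The ratio was 1.77 in hypoxia (1.69 to 1.84), short of the rule, 2.36 with oxamate over hypoxia (2.30 to 2.43) and 4.18 over normoxia (4.02 to 4.34). The 2 calls with oxamate held under every setting tried except a 3-fold rule, which ended the call against hypoxia.

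The promoter window of SLC12A2 held 2 copies of GCGTG, 194 and 75 bases before the RefSeq start, and no ACGTG. It is shown because SLC12A2 was the member closest to ATP1B1 in pattern. The 250 bases before the start, at chr5:128083516-128083765 (GRCh38.p14, plus strand), have the matches in capitals.
SLC12A2: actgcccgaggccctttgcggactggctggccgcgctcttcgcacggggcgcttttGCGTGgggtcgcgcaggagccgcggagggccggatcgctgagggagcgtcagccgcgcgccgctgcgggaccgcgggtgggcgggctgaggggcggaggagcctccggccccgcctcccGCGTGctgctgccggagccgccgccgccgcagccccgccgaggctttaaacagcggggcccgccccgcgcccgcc

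SLC12A4 encodes an outward potassium chloride carrier that is widely expressed and known for its activity in swollen cells. Its locus is 67943474 to 67969601 of chromosome 16 (minus strand), and 4.05% of its exon bases overlap LCAT on the same strand. Its level was 32.8 CPM in normoxia (848 fragments), 53.8 in hypoxia (1488) and 70.3 with oxamate (1758). Each library was above the one before, without overlap, but neither step reached 2-fold: the ratios were 1.64 (1.51 to 1.79) and 1.31 (1.22 to 1.40). Oxamate against normoxia gave 2.14 (1.97 to 2.33), a call that was lost when the whole interval had to pass 2-fold and when the length trend was subtracted (log2 0.96).

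SLC12A7, for another outward carrier of the same group, was at nearly the same level in all libraries. Its locus is 1050384 to 1112063 of chromosome 5 (minus strand). It had 170 CPM in normoxia (4407 fragments), 169 in hypoxia (4668) and 165 with oxamate (4136), and the 3 intervals overlapped. It was 1.01-fold lower in hypoxia (0.969 to 1.05), 1.02-fold lower with oxamate than in hypoxia (0.978 to 1.06) and 1.03-fold lower than in normoxia (0.988 to 1.08). Each interval held 1. Its direction in hypoxia depended on the setting: the log2 ratio of -0.01 became 0.14 by total fragments, 0.03 by nuclear genes alone and 0.04 with the GC trend subtracted. Its promoter window held the palindrome made of ACGTG on both strands, which overlap, 53 bases before the start; the 30 bases around it are at chr5:1112099-1112128 (GRCh38.p14, minus strand).
SLC12A7: agcaggtgaagtCACGTGgcccgggcgggg

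The inward carrier gene was therefore compared with this outward one within each library. Per exon length, SLC12A2 stood at 0.440 of SLC12A7 in normoxia (0.421 to 0.460), 0.785 in hypoxia (0.756 to 0.815) and 1.89 with oxamate (1.83 to 1.96). By principal transcript length these ratios were 0.599, 1.07 and 2.58, so the side of 1 in hypoxia depended on the length. Of 8 cation chloride cotransporter genes listed, 5 were measured: 0 were called in hypoxia, and SLC12A2 was the 1 called with oxamate over hypoxia. Of all genes, 10.8% were called higher and 8.07% lower in hypoxia, and 5.92% and 5.07% with oxamate over hypoxia. SLC12A8 and SLC12A9, whose transport is less well defined, were highest in normoxia, with 701, 379 and 318 fragments for the former and 1140, 1002 and 589 for the latter. SLC12A8 was called lower with oxamate against normoxia, at 2.13-fold (1.86 to 2.44). The kidney carrier genes SLC12A1 and SLC12A3 had at most 5 fragments in any library.

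WNK1 encodes the most widely expressed WNK kinase (chromosome 12, plus strand, 752579 to 911452). It had the largest ratio of the members in hypoxia against normoxia. Its level was 486 CPM in normoxia (12558 fragments), 1470 in hypoxia (40676) and 959 with oxamate (24002). Hypoxia was the highest library and oxamate lay between, with no overlap. The ratio was 3.03 in hypoxia (2.97 to 3.09), the call of which held under all settings tried, with the lowest value under the length trend (log2 1.26). With oxamate it stood 1.53-fold below hypoxia (1.51 to 1.56), not called, and 1.98-fold above normoxia (1.93 to 2.02). That last value passed 2-fold when scaled by total fragments (log2 1.08) and when scaled over nuclear genes alone (log2 1.00), and was lowest with the length trend subtracted (log2 0.61). WNK1 was the only member lower with oxamate than in hypoxia by more than the counting interval.

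The tables sum the isoforms of WNK1, for which GENCODE 29 lists 21 transcripts, so the full-length and kinase-deficient forms cannot be told apart. The promoter window of WNK1 held 1 GCGTG, 91 bases before the start, and 1 TGGAAA, 234 bases before it, both read on the minus strand. TGGAAA is the core of the tonicity element bound by NFAT5. The 250 bases before the start are at chr12:752329-752578 (GRCh38.p14, plus strand), shown because WNK1 had the largest ratio of the set in hypoxia, with matches in capitals.
WNK1: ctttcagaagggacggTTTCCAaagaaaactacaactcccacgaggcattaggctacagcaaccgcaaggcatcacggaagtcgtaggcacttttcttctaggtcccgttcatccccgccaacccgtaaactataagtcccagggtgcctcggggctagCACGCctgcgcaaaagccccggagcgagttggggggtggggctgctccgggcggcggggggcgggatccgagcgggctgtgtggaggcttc

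Of 11 genes on the WNK pathway list, 9 were measured. WNK1, itself a chosen member, was the 1 called in hypoxia, where 10.8% of all genes were called higher and 8.07% lower. With oxamate over hypoxia 2 were called higher and 0 lower, beside 5.92% and 5.07% of all genes. STK39, for the kinase that WNK1 acts through on SLC12A2, had 37.7, 30.6 and 82.2 CPM, and was called higher with oxamate over hypoxia at 2.68-fold (2.47 to 2.91). CAB39L, for a scaffold that activates this kinase, was called higher at 3.12-fold (2.39 to 4.13) on 74 and 209 fragments. The paralogs OXSR1 and CAB39 stood at 1.12-fold (1.03 to 1.22) and 1.24-fold (1.17 to 1.32) in that step. WNK2 had 2823, 1601 and 971 fragments and was called lower with oxamate against normoxia, at 2.81-fold (2.61 to 3.03). WNK4 had 494, 490 and 479 fragments, and WNK3 at most 7. CUL3, for the ubiquitin ligase scaffold that turns over WNK kinases, had 90.9, 83.3 and 92.4 CPM. The list's median log2 ratio was -0.13 in hypoxia and 0.16 with oxamate.

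SGK1 had the lowest CPM of the members in hypoxia and with oxamate, while in normoxia its interval overlapped that of SLC12A4. Its locus is 134169248 to 134318112 of chromosome 6 (minus strand). Its level was 29.9 CPM in normoxia (773 fragments), 6.47 in hypoxia (179) and 8.95 with oxamate (224). Normoxia was far above the other libraries. SGK1 was called lower in hypoxia at 4.62-fold (3.92 to 5.47) and lower with oxamate against normoxia at 3.34-fold (2.87 to 3.89). The difference between the 2 libraries of 1% oxygen, 1.38-fold higher with oxamate (1.13 to 1.69), was not called, and the depth behind it is the smallest of any member. Both calls against normoxia held under all settings tried. In the promoter window at the principal start of SGK1, chr6:134174817-134175116, none of the 3 motifs was present, and 2 further windows upstream held 1 ACGTG and 1 GCGTG.

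The other SGK kinases and the partners of SGK1 had varied patterns. SGK2, better expressed here than SGK1, had 78.9, 85.1 and 83.9 CPM, and SGK3 had 6.07, 4.30 and 3.12 CPM. Of 11 genes on this list, 1 was called higher and 2 lower in hypoxia, beside 10.8% and 8.07% of all genes. With oxamate over hypoxia 1 was called higher and 0 lower, beside 5.92% and 5.07%. RICTOR, the scaffold of the mTOR complex that phosphorylates SGK kinases, was 2.31-fold higher in hypoxia (2.15 to 2.47), a call lost when the length trend was subtracted (log2 0.92), while MLST8, a subunit of the same complex, was 2.32-fold lower (2.14 to 2.53). TSC22D3, a glucocorticoid-induced gene also known to respond to osmotic conditions, was 5.27-fold higher with oxamate over hypoxia (4.50 to 6.19), from 6.94 to 36.5 CPM. NEDD4L, for the ubiquitin ligase that SGK1 restrains, had 140, 116 and 110 CPM, the most fragments on the list in normoxia and hypoxia but fewer than RICTOR with oxamate (2755 against 3517). The list's median log2 ratio was 0.01 in hypoxia and -0.02 with oxamate.

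**Figure D3:**
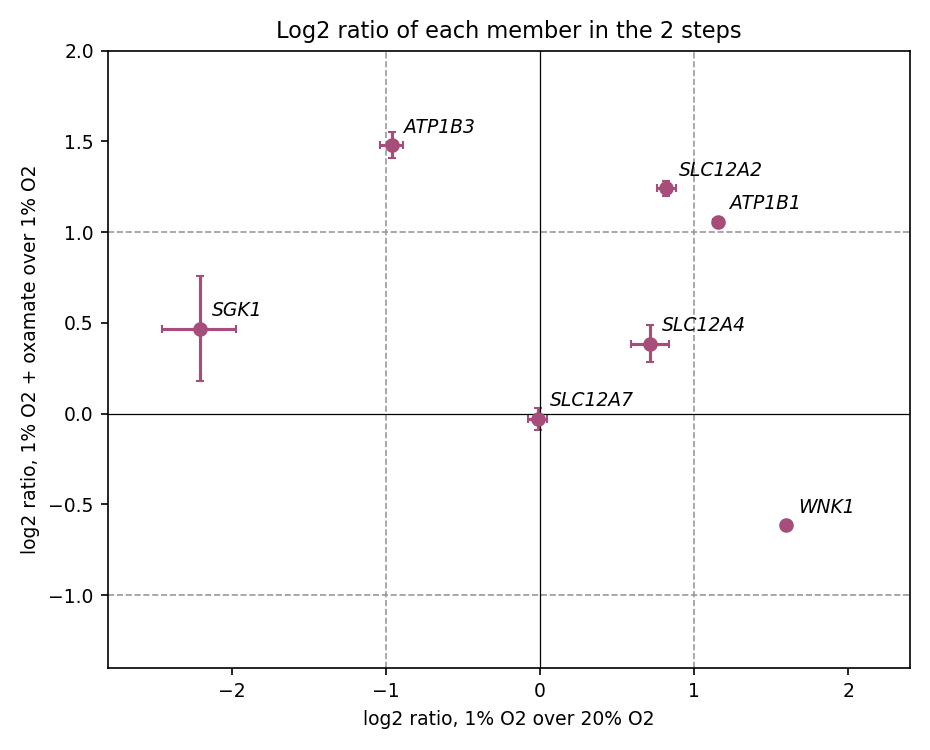
Log2 ratio of each member in hypoxia over normoxia (horizontal) and in hypoxia with oxamate over hypoxia (vertical), with 95% counting intervals and dashed lines at the 2-fold rule. ATP1B1 is the member past 2-fold in both steps; ATP1B3 and SGK1 lie left of 0, WNK1 below 0, and SLC12A7 at the centre. The step ratios of ATP1B1 fall below 2-fold under a length trend (first step) or total-fragment scaling (second step).

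The members fell into different patterns over the 3 libraries. Likeness was measured as the distance between pairs of log2 ratios of the 2 steps, over 3 libraries and 11218 protein-coding genes with at least 100 fragments in the highest library. The genes nearest to ATP1B1 were GOLGA8B (distance 0.06), PDE5A (0.07), VLDLR (0.07), CREB5 (0.11) and TANC2 (0.12). GOLGA8B belongs to a family of near-identical copies, so its value is uncertain. Among the members SLC12A2 was nearest, at rank 73 with a distance of 0.38, followed by SLC12A4 at rank 466 (0.80). ATP1B3 ranked 8243 (2.16) and SGK1 10989 (3.41). In all, 103 protein-coding genes with that depth were called higher in both steps, ATP1B1 among them.

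All 7 members had a promoter window in the RefSeq table, with 4 windows for SLC12A4 and 3 for SGK1. Windows ran from 250 bases before to 50 after the start. ACGTG or GCGTG on either strand was in 9 of the 12 member windows, at least 1 for each of the 7 members, and in 48.4% of all 35116 windows. Counted separately, ACGTG was in 21.4% of all windows and GCGTG in 36.5%. These shares are per window, so they do not compare with the count per member, where several windows give more chances. GC content of the member windows ran from 38% (SGK1) to 78.7% (SLC12A2), and the shares were not matched for it. TGGAAA was in 1 window each of WNK1 and SLC12A4, and in 20.7% of all windows. A match describes the letters of a window and is no evidence that a factor binds there.

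A further list held genes of the osmolyte response: carriers and an enzyme that supply organic osmolytes, the transcription factor gene NFAT5 and the heat shock gene HSPA4L. In hypoxia against normoxia 3 of 6 measured were called higher and 0 lower: NFAT5 at 2.399-fold (2.28 to 2.53), SLC38A2 at 2.35-fold (16744 and 42192 fragments) and SLC6A6 at 2.13-fold (2.05 to 2.22), of which NFAT5 and SLC6A6 lost the call when the length trend was subtracted. In the step with oxamate these 3 were not called, at 1.07-, 1.94- and 1.20-fold, nor was HSPA4L, with 994 and 599 fragments (interval 1.35- to 1.66-fold lower). Of 7 measured in that step, 3 were called higher and 0 lower: AKR1B1 at 74.8-fold (40.4 to 157, on 10 and 676 fragments), SLC6A12 (interval 11.1- to 12.9-fold, on 738 and 7975 fragments) and SLC5A3 at 8.09-fold (7.77 to 8.43). AKR1B1 reached 50 fragments only with oxamate, so it could enter this count only as higher. Of all genes tested, 10.8% were called higher and 8.07% lower in hypoxia, and 5.92% and 5.07% with oxamate over hypoxia. The list's median log2 ratio was 0.93 and 0.96 in the 2 steps, beside -0.11 and -0.01 for all genes. AKR1B1 is part of the second of these medians. The list was chosen with earlier results of these data known, so its counts and medians are descriptions and show no response of a set.

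**Figure D4:**
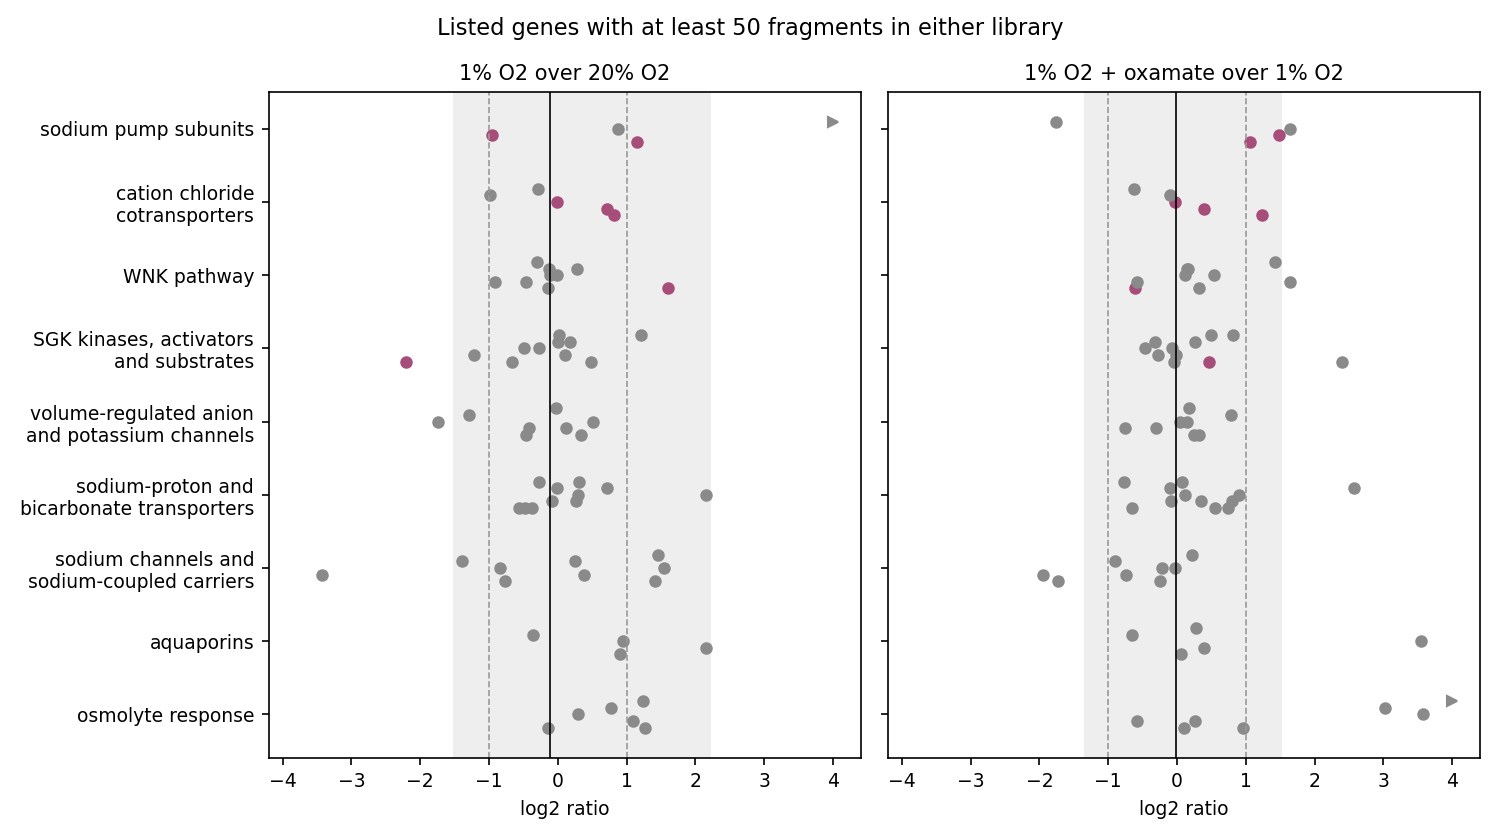
Log2 ratio of listed genes with at least 50 fragments in either library, in hypoxia over normoxia (left) and in hypoxia with oxamate over hypoxia (right). Purple points are members, the solid line is the median of all genes tested, the shaded band holds the middle 95% of them, dashed lines mark 2-fold, and arrowheads mark genes beyond the axis (FXYD3, with 0 fragments in normoxia, and AKR1B1). In the right panel 3 pump genes lie right of the upper 2-fold line, of which ATP1B1 falls short of it when scaled by total fragments.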

How the data were processed

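The 3 deposited tables, 1 per library, give 1 value per gene, taken from its size and its relation to the length column as FPKM made by the authors. Tools in the submitters' processing notes, without their roles, were edgeR 3.22.5, featureCounts 1.5.0-p3, HISAT2 2.0.5 and StringTie 1.3.3b; the build was hg38. Strand setting, filters and annotation release were not given in these sources. FPKM multiplied by exon length was a whole multiple of 1 constant per library for 100% of values above 0 (tolerance 0.01), and these whole numbers were used as fragments, since the design had allowed for this. The libraries summed to 27412147 (normoxia), 26309340 (hypoxia) and 24826365 (oxamate) fragments.

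Genes with at least 10 fragments in total (21987) set the scaling, a trimmed mean of log ratios (30% of log ratios and 5% of levels trimmed; factors 0.943, 1.05 and 1.01). Software was statsmodels 0.14.6, pandas 2.3.3, scipy 1.17.1 and numpy 2.4.6 under Python 3.11.15. Ratios have 95% exact conditional binomial (Clopper-Pearson) intervals, and levels exact Poisson ones. The labels name no molecular identifiers, so fragments need not be independent and intervals hold counting error alone. Log2 medians use a prior count of 0.5. Gene types and exon overlaps came from GENCODE 29 by gene identifier (58356 of 61533 genes), and promoter windows from RefSeq (GRCh38.p14).

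Members and lists were chosen with earlier results of these data known. The named genes were all members, list genes called in either step or with most fragments, and the 5 nearest to ATP1B1 in pattern; list genes beyond this were named after their values were seen. The procedure was tested on simulated counts that held counting error alone, so that test does not cover the spread between cultures. The settings applied to the pathway lists and the principal transcript lengths were chosen after seeing the data. Alternatives changed scaling, filters, the size of a call, and length and GC trends. Some listed genes are not reported here and are left out of the lists' counts.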

Additional observations from a re-analysis of the deposited data

How the results depend on the processing

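Of 231 values of the 21 member ratios under 11 settings, 201 stayed within the counting interval of the reported ratio and 30 lay outside it. Settings that changed only the call rule (minimum of 10 or 200 fragments, 1.5-fold, 3-fold, whole interval past 2-fold) left every ratio as it was. Their values are among the 201 and could not leave the interval. Of the called ratios 0 changed sign (the uncalled SLC12A7 did), and 17 values changed the call. The cause of changed calls was not tested beyond the settings named. Members called higher in hypoxia numbered 4 at 1.5-fold, 1 at 3-fold and 1 with the gene length trend subtracted, where WNK1 remained. Members called lower in hypoxia numbered 2 at 1.5-fold and 2 with the GC trend subtracted, in each case SGK1 and ATP1B3. With oxamate over hypoxia, 0 were called higher at 3-fold and 1 (WNK1) lower at 1.5-fold. With a minimum of 10 fragments, genes called over the whole table numbered 3618 higher and 1773 lower in hypoxia, 2079 and 1867 with oxamate over hypoxia, and 4350 and 2911 with oxamate over normoxia. A minimum of 200 gave 723 higher and 848 lower in hypoxia, 467 and 338 with oxamate over hypoxia, and 1224 and 1681 over normoxia, so that lower calls outnumbered higher ones in both contrasts with normoxia. A 1.5-fold rule gave 2530 and 2970, 1880 and 1895, and 3306 and 3905 in the 3 contrasts, and a 3-fold rule 731 and 297, 307 and 222, and 1143 and 718. Calls that needed their full interval beyond 2-fold numbered 944 and 665 in hypoxia and 491 and 307 with oxamate over hypoxia. Scaling by total fragments moved the median of all genes in hypoxia from -0.11 to 0.04. Among the pathway lists, in settings also chosen after seeing the data, total-fragment scaling left 2 pump genes higher with oxamate over hypoxia, and in hypoxia gave 3 pump genes (FXYD2 added) and 3 aquaporin genes higher. In hypoxia, the length trend left 1 pump gene (FXYD3), 0 SGK list genes and 1 osmolyte gene higher, and made 2 aquaporin genes higher and 1 WNK list gene (WNK2) lower. The GC trend gave 1 pump gene (ATP1B3) lower and 2 aquaporin genes higher, and median-of-ratios scaling 1 cotransporter gene (SLC12A8) lower. With principal transcript lengths, an alternative chosen after seeing the data, level ratios crossed 1 in normoxia for ATP1B1 over ATP1B3 (1.77) and in hypoxia for SLC12A2 over SLC12A7 (1.07). No paired analysis was possible because each condition had 1 library. Depth limits SGK1 most among the members, and with 1 culture per condition the spread between cultures is not known.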

Other observations

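Other carriers and channels of sodium, water and cell volume, listed with the members, were described in the same way. Of the 8 volume-regulated anion and potassium channel genes measured, 0 were called higher and 2 lower in hypoxia, with a median log2 ratio of -0.22 beside -0.11 for all genes, and 0 were called in either direction with oxamate over hypoxia. The shares over all genes were 10.8% higher and 8.07% lower in hypoxia, and 5.92% and 5.07% with oxamate over hypoxia. LRRC8D, a subunit of the volume-regulated anion channel, counted 2519, 802 and 801 fragments (normoxia, hypoxia, oxamate) and was 3.36-fold lower in hypoxia (3.10 to 3.64). The obligatory subunit gene LRRC8A had 74.8, 94.5 and 112 CPM. CLCN2, a chloride channel gene, was 2.46-fold lower in hypoxia (2.05 to 2.96). PIEZO1, for a stretch-activated channel, had 4692, 7126 and 6607 fragments, the highest counts of this group.

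Of 12 sodium-proton and bicarbonate transporter genes measured with oxamate over hypoxia, SLC4A3 was the 1 called, beside 5.92% of all genes called higher. This anion exchanger gene counted 32, 155 and 832 fragments. It stood 4.53-fold above normoxia in hypoxia (3.08 to 6.85) and 5.94-fold higher again with oxamate (5.00 to 7.10). Among sodium channels and sodium-coupled carriers, SCNN1A, a subunit of the epithelial sodium channel, peaked in hypoxia at 37.8 CPM, against 14.2 in normoxia and 11.4 with oxamate, and stood 3.32-fold below hypoxia when oxamate was added (2.91 to 3.80). Its partner genes SCNN1B and SCNN1G had at most 2 fragments. SLC20A1, a sodium-coupled phosphate carrier gene, was 2.75-fold higher in hypoxia (2.65 to 2.85), and SLC34A2, for another such carrier, was 10.9-fold lower (7.40 to 16.7). SLC5A6, the sodium-coupled vitamin carrier gene, was 2.63-fold lower (2.44 to 2.83). SLC13A5 had 18, 57 and 13 fragments, and was called higher in hypoxia and lower with oxamate over hypoxia. It reached 50 fragments only in hypoxia, so the direction of both calls follows from that minimum. Of the aquaporin genes, AQP3 had the most fragments, at 22.7, 42.6 and 44.5 CPM. AQP4 was called higher in hypoxia and AQP6 with oxamate, on at most 64 and 79 fragments. In the step of its call each reached 50 fragments only in the higher library, so it could be called only as higher.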
